A study of Homo sapiens with 16 samples.

Results

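DVL1, DVL2 and DVL3, the human Dishevelled genes, were chosen by their symbols in the gene tables of this ribosome profiling study, and all 3 were listed in both tables, among 8657 genes in one and 7433 in the other. Dishevelled proteins are cytoplasmic scaffolds that pass a Wnt signal on from Frizzled receptors. Through their DIX domain they assemble into polymers and bind Axin, which holds back the complex that destroys beta-catenin, and they also act in the planar cell polarity branch of the pathway. DDX3X, the helicase under study, is known from earlier work to bind casein kinase 1 epsilon and to promote its phosphorylation of Dishevelled. DVL2 was among the genes that the study selected as candidates for DDX3 dependence, in a long and a short isoform.

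The cells were HCT-116, a colorectal carcinoma line, grown from 1 clone that carried OsTIR1, the plant F-box protein, under a CMV promoter and a mini-AID degron on endogenous DDX3X. Adding IAA, an auxin, leads to degradation of the tagged protein. There were 4 conditions: control lentivirus with 500 µM IAA, control lentivirus with DMSO, and lentiviral DDX3Y or lentiviral DDX3X, each with 500 µM IAA, with 48 h of treatment throughout. Cells also received 100 µg/ml cycloheximide, an inhibitor of translation elongation, before harvest. By the paper's methods, RNA for RNA-seq was taken from part of the lysate that was not digested. The introduced DDX3Y and DDX3X were FLAG-tagged, partially codon-optimized and carried by cells sorted for a linked fluorescent protein. Every condition had 2 replicates, each with 1 ribosome profiling and 1 RNA-seq library, which makes 16 libraries.

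The deposited tables give 1 pooled value per gene and assay, a base mean, which is the mean of normalized read counts over the 4 libraries of an assay. One table pools control-lentivirus cells treated with IAA and with DMSO, and is the control pool below. The other pools the DDX3Y and DDX3X lines, the complemented pool. DDX3Y had no row in the control pool and 1 row in the complemented pool. A base mean holds both conditions of its table, so the levels below are not levels of IAA, DMSO, DDX3Y or DDX3X cells, and the effect of losing DDX3X on the Dishevelled genes was not analysed here. The spread between replicates is not in these values either, and the intervals given are 95% intervals from counting alone, with equal weights assumed for the 4 libraries. Summed over all listed genes, the base means came to 15611333 RNA and 604809 footprint reads per library in the control pool, and 15950127 and 734724 in the complemented pool, so footprints limit the precision. Of 12 colorectal epithelial markers 10 were listed in both pools, led by KRT8, KRT18 and KRT19 with RNA base means of 22574, 17890 and 12056 in the control pool. VIL1 and CDX1 had no row in either pool. CDX2 had low RNA base means of 348 in the control pool and 317 in the complemented pool, with 15.1% and 4.51% of genes lower. Of 13 markers of other cell types, COL1A1 was listed in the control pool, at an RNA base mean of 506, and none in the complemented pool. The tables leave out genes with few reads, so a gene without a row had few reads or was filtered for another reason. Their lower limits differed. Every gene of the complemented pool had a footprint base mean over 20, whereas 2332 genes of the control pool had 20 or less. COL1A1 was among these, at 10.6, so its absence from the complemented pool need not be a difference between the cells. The same holds for the numbers of genes listed in each pool below.

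In GENCODE v44, the annotation of build GRCh38 (hg38) used here, DVL1 (ENSG00000107404.20 in the tables) lies on the minus strand of chromosome 1 from 1335276 to 1349418. DVL2 (ENSG00000004975.12) lies on the minus strand of chromosome 17 from 7225342 to 7234517, and DVL3 (ENSG00000161202.20) on the plus strand of chromosome 3 from 184155377 to 184173614. Their canonical coding sequences have 695, 736 and 716 codons without the stop. Because the measurement of interest is how densely ribosomes cover each coding sequence, the bases around the start codon are printed below for the canonical transcripts. The scanning ribosome has to recognize this codon. The window holds 12 nt before and 6 nt after the start codon, which is in capitals.
DVL1: cgccgccgcgccATGgcggag
DVL2: gcgggcgagaccATGgcgggt
DVL3: gaggccagagccATGggcgag
The start codons lie at chr1:1349063-1349065, chr17:7234260-7234262 and chr3:184155636-184155638. The base 3 nt upstream of the start codon was a purine in all 3 (G, A and G), and the base just after it was G in all 3. Of the genes in the control pool with a 5′ UTR, 48.5% had a purine and a G at these places, so this context does not set the Dishevelled genes apart. All 12 bases before the DVL1 start codon are G or C, against 10 in DVL2 and 9 in DVL3.

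RNA and ribosome footprints ordered the paralogs differently. DVL1 had the most RNA of the 3 and the fewest footprints, and DVL2 the least RNA and the most footprints. The RNA base mean of DVL1 was 4449 (4384 to 4515) in the control pool and 4204 (4141 to 4268) in the complemented pool. DVL3 had RNA base means of 3116 (3062 to 3172) and 2512 (2463 to 2562). DVL2 had 2448 (2400 to 2497) and 2250 (2204 to 2297). In the control pool, 93.9% of genes had a lower RNA base mean than DVL1, 89.8% lower than DVL3 and 85.4% lower than DVL2. A base mean is not corrected for length. Per kilobase of coding sequence these shares were 88.9%, 81.4% and 74.1% in the control pool. They were 85.0%, 70.4% and 65.2% in the complemented pool. In footprints DVL1 had a base mean of 29.2 (24.2 to 35.05) in the control pool and 50.03 (43.3 to 57.5) in the complemented pool. DVL3 had 40.2 (34.3 to 46.9) and 55.1 (48.0 to 62.8). DVL2 had 64.7 (57.1 to 73.1) and 87.3 (78.4 to 96.9). The footprint intervals of DVL2 did not meet those of the other paralogs in either pool, while those of DVL3 and DVL1 overlapped in both. How often the intervals of other genes meet was not counted. By footprint base mean in the control pool, 43.5% of genes were lower than DVL1, 57.0% lower than DVL3 and 73.6% lower than DVL2. By footprints per kilobase of coding sequence these shares were 31.2%, 41.4% and 56.1%.

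**Figure D1:**
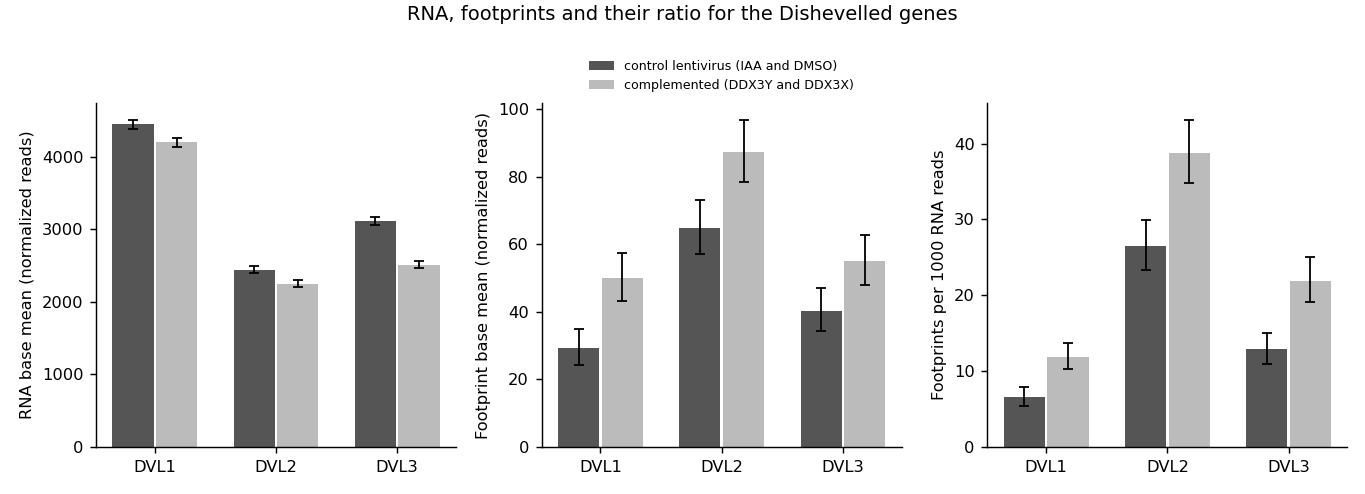
RNA base mean, footprint base mean and footprints per 1000 RNA reads (y axes) for DVL1, DVL2 and DVL3, with dark bars for the control pool and light bars for the complemented pool. Error bars are 95% intervals from counting alone and hold no replicate spread. DVL1 has the tallest RNA bars (4449 and 4204) and the shortest bars of footprints per RNA (6.57 and 11.9).

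Because reads were counted over coding sequences of 2085 (DVL1), 2208 (DVL2) and 2148 nt (DVL3), levels of the 3 genes were also set side by side per kilobase of coding sequence. DVL1 then supplied 45.5% of the Dishevelled RNA per kilobase in the control pool and 22.6% of the footprints per kilobase. DVL2 supplied 23.6% of the RNA and 47.2% of the footprints. DVL3 supplied 30.9% and 30.2%, about as much of one as of the other. In the complemented pool the shares of RNA and of footprints were 48.0% and 26.9% for DVL1, 24.2% and 44.3% for DVL2, and 27.8% and 28.8% for DVL3. As RNA per kilobase, DVL1 was 1.92 times as high as DVL2 in the control pool and 1.98 times in the complemented pool. As footprints per kilobase, DVL2 was 2.09 and 1.65 times as high as DVL1.

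The number of footprints per 1000 RNA reads, a pooled measure of ribosome density on the coding sequence, differed between the paralogs by more than counting error. It does not depend on coding length, since both reads were counted over the same sequence, but its scale is set by the depth and normalization of the libraries, so it is compared within a pool. DVL1 had 6.57 footprints per 1000 RNA reads (5.43 to 7.88) in the control pool and 11.9 (10.3 to 13.7) in the complemented pool. DVL3 had 12.9 (10.99 to 15.1) and 21.9 (19.1 to 25.03). DVL2 had 26.4 (23.3 to 29.9) and 38.8 (34.7 to 43.1). The order DVL2, DVL3, DVL1 held in both pools and no interval overlapped another in the same pool. The log2 ratio of all genes had quartiles of -5.21 and -3.85 in the control pool. The interval of DVL2 there was -5.42 to -5.06. Non-overlap alone therefore does not set these genes apart, and its share over all genes was not counted. On the log2 scale, the ratio of footprints to RNA was 2.01 ± 0.16 (SE from counting alone) higher in DVL2 than in DVL1 in the control pool and 1.70 ± 0.13 in the complemented pool. DVL2 exceeded DVL3 by 1.03 ± 0.15 and 0.82 ± 0.13, and DVL3 exceeded DVL1 by 0.97 ± 0.18 and 0.88 ± 0.14. In plain ratios, DVL2 had 4.02 times (3.23 to 5.01) as many footprints per RNA as DVL1 in the control pool and 3.26 times (2.73 to 3.88) in the complemented pool. No replicate spread enters these intervals, so they are not a test between the paralogs. Few stretches of 28 nt fitted more than 1 paralog exactly. Of 2058 windows of 28 nt in the DVL1 coding sequence 11 (0.534%) also occur elsewhere on the assembled chromosomes of hg38, all of them in the coding sequences of DVL2 or DVL3. The same held for 2 of 2181 windows in DVL2 and 9 of 2121 in DVL3. Only exact matches were counted, so reads aligned with mismatches or shorter than 28 nt are not covered. Windows across exon junctions could match the other paralogs but not the genome.

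Set against the other genes of each table, all 3 Dishevelled genes lay below the middle in footprints per RNA. The median gene had 45.7 footprints per 1000 RNA reads in the control pool and 55.6 in the complemented pool. DVL1 had 0.144 times the median ratio in the control pool and 0.214 times in the complemented pool, with 1.14% and 1.51% of genes lower. DVL3 had 0.282 and 0.394 times the median, with 6.65% and 8.56% of genes lower. DVL2 had 0.578 and 0.697 times the median, with 24.2% and 28.2% of genes lower. This standing moved with RNA level. Genes with few footprints are not in the tables, so a gene with little RNA can be listed only where its ratio is high. In a comparison added after seeing the data, genes of a table were divided into 10 groups of equal size by RNA base mean, and each member was set against its own group. The median ratio of these genes was 28.1 footprints per 1000 RNA reads around DVL1 and 31.7 around DVL2 and DVL3 in the control pool. Within the group, 7.62% of genes lay below DVL1, 16.3% below DVL3 and 42.4% below DVL2 in the control pool. The shares were 10.6%, 18.0% and 44.3% in the complemented pool. The groups of DVL2 and DVL3 are narrow, with RNA base means of 1975 to 3151 in the control pool, whereas that of DVL1 is the highest and open-ended, at 3153 to 278674, so that DVL1 was set against many genes with far more RNA. Within these groups DVL2 lay near the middle and DVL3 well below it, and the rank of DVL1 is not one among genes of like RNA level.

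**Figure D2:**
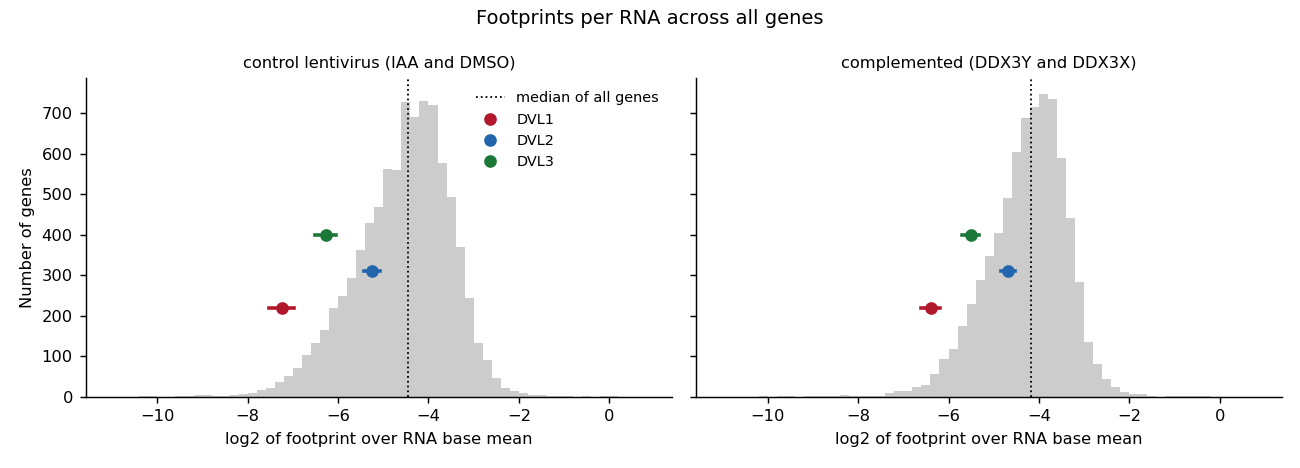
Number of genes (y axis) by log2 of the footprint over the RNA base mean (x axis) in the control pool (left) and the complemented pool (right). Coloured points mark DVL1, DVL2 and DVL3 with 95% intervals from counting alone, their height has no meaning, and the dotted line is the median of all genes. DVL1 sits in the far left tail at -7.25 and -6.39, against medians of -4.45 and -4.17.

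The 5′ leaders of the paralogs differed in the same order. DDX3 helicases are known to promote initiation on messages with structured leaders, so the annotated 5′ UTRs were measured. The canonical 5′ UTR of DVL1 has 353 nt with a GC content of 87.5%, that of DVL3 has 259 nt with 82.6%, and that of DVL2 has 255 nt with 73.7%. The median over the genes of the control pool was 123 nt and 68.4%, with quartiles of GC content at 61.1% and 75%. Of these genes 99.2% had a lower 5′ UTR GC content than DVL1, 94.7% lower than DVL3 and 70.2% lower than DVL2. The minimum free energy of folding predicted by RNAfold was -0.717 kcal/mol per nt for DVL1, -0.644 for DVL3 and -0.517 for DVL2, where a more negative value means a more stable predicted fold. The median gene had -0.379. Only 0.0237% of genes had a lower energy per nt than DVL1, 0.699% lower than DVL3 and 13.1% lower than DVL2. The genes were not matched for 5′ UTR length, and 87.9% of them had a shorter 5′ UTR than DVL1. The DVL1 5′ UTR holds 1 upstream ATG and those of DVL2 and DVL3 hold none, and 35.2% of the genes of the control pool have at least 1. The coding sequences are GC-rich as well, at 65.9% in DVL1, 61.5% in DVL3 and 61.1% in DVL2, against a median of 52.4%. Each of the 3 5′ UTRs lies within a single exon. With 3 genes the shared order of GC content, predicted folding and footprints per RNA is a description, and its part in the ratios was not tested.

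Each paralog has a second complete coding transcript in the annotation with a much shorter 5′ UTR. It has 47 nt in DVL1, 56 nt in DVL2 and 71 nt in DVL3, with GC contents of 93.6%, 75% and 87.3%. The order of the paralogs by GC content was the same for the short 5′ UTRs. Their predicted energies were -0.460, -0.429 and -0.620 kcal/mol per nt, so the short DVL1 leader was no longer the lowest of the 3. Counts over coding sequences do not separate these transcripts, and which of them the cells used is not shown by the tables. Whether the study's long and short DVL2 isoforms are these annotated ones was not analysed here.

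Genes with GC-rich 5′ UTRs had fewer footprints per RNA in general, and DVL1 was low among them too. With genes divided into 10 groups of nearly equal size by 5′ UTR GC content, the median log2 ratio of footprints to RNA was between -4.38 and -4.21 in the 5 lowest groups of the control pool and -5.02 in the highest. In the complemented pool it was between -4.24 and -4.02 in the 5 lowest groups and -4.48 in the highest. DVL1 and DVL3 belong to the highest group, which holds 831 genes in the control pool and 725 in the complemented pool. In it, 2.53% of genes had a lower ratio than DVL1 and 16.5% a lower ratio than DVL3 in the control pool, and 1.93% and 15.6% in the complemented pool. DVL2 had 29.1% of its group lower in the control pool and 28.8% in the complemented pool. The highest group is open-ended, with a GC content of 80.1 to 100% and a median of 82.9% in the control pool. DVL1 has 87.5%, so its rank is not one among genes of like GC content. These groups were not matched for RNA level.

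**Figure D3:**
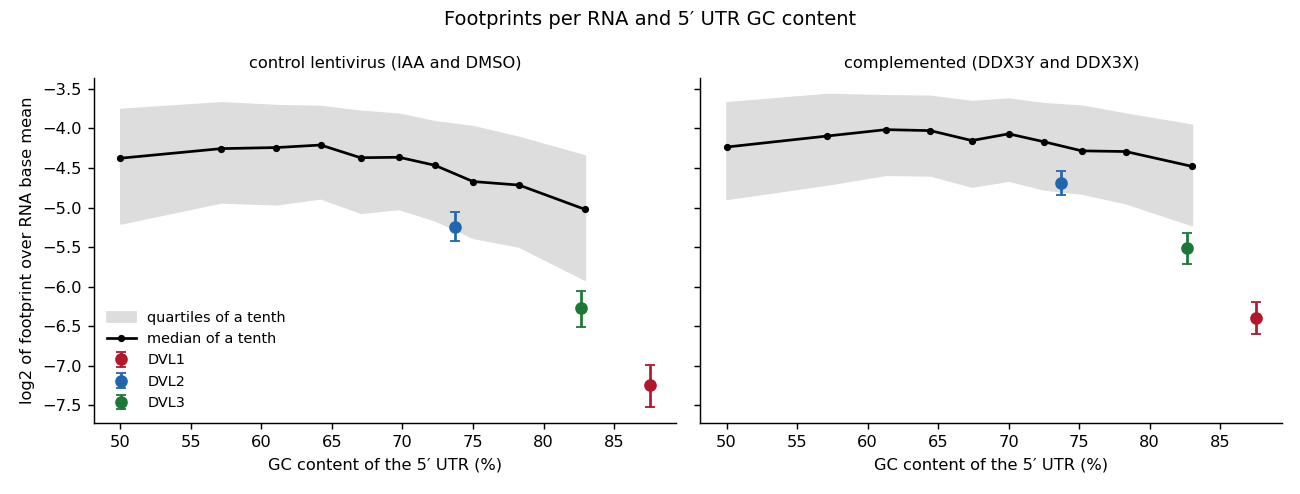
Log2 of the footprint over the RNA base mean (y axis) against the GC content of the 5′ UTR in percent (x axis) in the control pool (left) and the complemented pool (right). The black line joins medians of 10 equal groups of genes, the grey band spans their quartiles, and coloured points are DVL1, DVL2 and DVL3 with 95% intervals from counting alone. The line falls to -5.02 in the highest group of the control pool, where line and band end at the group's median GC content of 82.9%. DVL1, at 87.5% GC, lies to the right of this end and lower than the band there.

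Most listed Wnt pathway genes lay below the median of all genes in footprints per RNA. Of 129 other pathway genes on lists by role, 68 were listed in the control pool and 62 in the complemented pool, with medians of 26.998 and 36.7 footprints per 1000 RNA reads. Of these, 52 of 68 and 46 of 62 lay below the median of all genes. Their median 5′ UTR GC content was 72.7%. These genes were not set against genes of like RNA level. In the control pool the median RNA base mean was 868 over all genes. It was 1956 for receptors, 1567 for kinases, ligases and partners, and 1971 for the destruction complex. It was 1747 for beta-catenin and TCF genes and 1154 for planar cell polarity, but 272 for ligands and 848 for extracellular regulators. The part of RNA level in their ratios was not tested. DVL2 lay at the middle of these genes, with 34 of 68 lower in the control pool and 34 of 62 in the complemented pool, and DVL3 had 9 and 12 lower. DVL1 had 3 lower in the control pool and 0 in the complemented pool. The 3 genes were RYK, a Wnt receptor with a kinase-like domain, CSNK1G2, a casein kinase 1, and TLE2, a Groucho corepressor. They were named after their values were seen, and their footprint base means were 12.3, 12.4 and 18.0. The complemented pool lists only genes with over 20, and RYK had no row there, so its place relative to DVL1 in that pool is not known. CSNK1G2 and TLE2 were listed there, at 13.8 and 13.2 footprints per 1000 RNA reads against 11.9 for DVL1.

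Upstream of Dishevelled, 8 of 16 receptor genes were listed in the control pool, with a median of 28.9 footprints per 1000 RNA reads, and 7 in the complemented pool, with 46.0. The low-density lipoprotein receptor-related co-receptors had 10.2 (LRP5) and 13.8 (LRP6) in the control pool and 18.2 and 17.8 in the complemented pool. LRP5 was lowest in the control pool and LRP6 in the complemented pool among receptors with a footprint base mean above 20. FZD2, a Frizzled receptor that binds Dishevelled, was highest in both, at 53.0 and 60.9. Of 21 genes for ligands and their secretion 3 and 2 were listed. WLS, which carries Wnt proteins to the cell surface, had 99.5 and 98.8, and WNT16, a ligand, had 63.4 in the complemented pool. Among extracellular regulators, of which 5 and 4 of 19 were listed, the values ran up to 69.9 for KREMEN2 in the control pool and 89.5 for DKK1 in the complemented pool, both of them Wnt antagonists. The lowest with over 20 footprints were NOTUM, a Wnt-inactivating esterase, at 30.1 in the control pool and KREMEN1 at 16.2 in the complemented pool.

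Next to Dishevelled itself, kinases, ubiquitin ligases and binding partners had medians of 27.9 and 34.9 footprints per 1000 RNA reads over 19 and 17 listed genes. CSNK1E, the kinase through which DDX3X is known to act on Dishevelled, had an RNA base mean of 2735 and 24.9 footprints per 1000 RNA reads in the control pool and 34.9 in the complemented pool, close to DVL2. Its reads overlap a read-through gene listed as TPTEP2-CSNK1E, so its counts are uncertain. The lowest with over 20 footprints were DACT1, a Dishevelled-binding inhibitor, at 14.1 in the control pool and CSNK1G2 at 13.8 in the complemented pool, and USP14, a deubiquitinase, was highest in both at 84.8 and 103. CCDC88C, which binds Dishevelled and was grouped here with the other genes with a DIX domain, was listed in both pools at 13.7 and 18.5. AXIN2, which has a DIX domain, was listed in the complemented pool alone at 25.4. AXIN1 and DIXDC1 had no row in either.

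Downstream, the destruction complex had medians of 30.4 and 39.3 footprints per 1000 RNA reads over 10 and 11 listed genes. Among its genes with over 20 footprints TNKS2, a tankyrase that acts on Axin, was lowest in the control pool at 15.6 and FBXW11, a ubiquitin ligase subunit, in the complemented pool at 19.3. PPP2R1A, a phosphatase scaffold, was highest at 102 and 90.4. Beta-catenin and TCF genes had medians of 22.5 and 31.6 over 11 and 10 listed genes. CTNNB1, which encodes beta-catenin, was highest at 81.1 and 77.3, and the lowest with over 20 footprints were CREBBP, a coactivator, at 15.8 in the control pool and TLE2 at 13.2 in the complemented pool. Planar cell polarity genes had medians of 18.5 and 30.0 over 11 and 10 listed genes, and with over 20 footprints they lay between CELSR1, an atypical cadherin, at 7.95 and 17.0 and RHOA, a small GTPase, at 88.1 and 94.9. DVL1 at 6.57 and 11.9 lay below the lowest gene with over 20 footprints of every Wnt list in either pool, while the 3 genes with fewer footprints named above lay below it in the control pool.

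**Figure D4:**
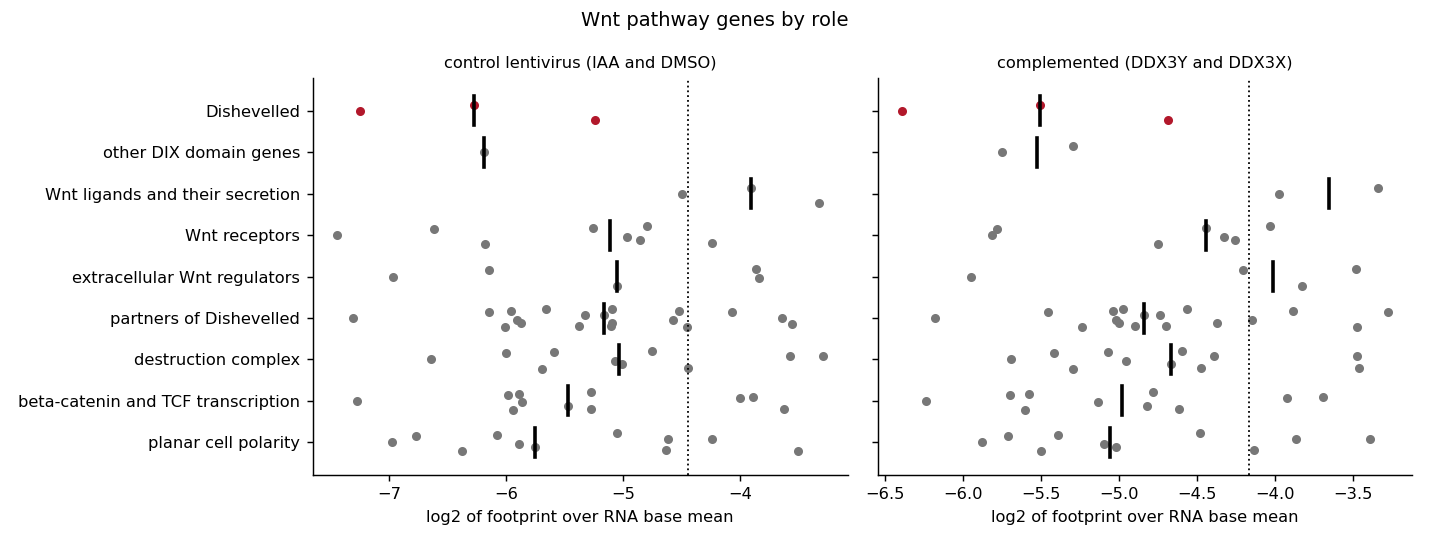
Log2 of the footprint over the RNA base mean (x axis) for the listed Wnt pathway genes by role (y axis) in the control pool (left) and the complemented pool (right), 1 point per gene, Dishevelled in red. Black bars are medians of a list and the dotted line is the median of all genes in the table. The Dishevelled median was -6.28 in the control pool and -5.51 in the complemented pool, and all 3 genes lie left of the dotted line.

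Among the candidates for DDX3 dependence and the controls named by the study, DVL2 was not the lowest. ODC1, the first enzyme of polyamine synthesis and a candidate, had 5.80 footprints per 1000 RNA reads in the control pool and 14.7 in the complemented pool, close to DVL1. PRKRA, an activator of the kinase PKR and a candidate, had 24.1 and 42.5, close to DVL2. Of the controls, RPLP1, a ribosomal stalk protein, had 2.24 and 3.02, CCNE1, cyclin E1, had 24.9 and 45.0, and SIKE1, a suppressor of the kinase IKK-epsilon, had 84.1 and 104. ATF5, also a control, had no row in either table. Candidates and controls overlapped in this pooled measure in both pools, in the complemented pool only through RPLP1. Whether RPLP1 reads fit elsewhere in the genome was not checked.

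The genes most like each paralog in RNA and footprint level were named by the distance over 4 pooled values, the log2 RNA and footprint base means of both pools, among the 7386 genes that the tables share. For DVL1 they were DLG5, NIN and RC3H2, at distances of 0.22, 0.27 and 0.28. For DVL2 they were TPTEP2-CSNK1E, AGFG1 and STARD7, at 0.07, 0.11 and 0.14. For DVL3 they were AKAP1, DNAJC13 and SETD1A, at 0.18, 0.22 and 0.23. Their products include NIN, a centrosomal protein, RC3H2, an RNA-binding protein, STARD7, a lipid transfer protein, AKAP1, a mitochondrial anchor of protein kinase A, and SETD1A, a histone methyltransferase. DLG5, a polarity scaffold, had RNA base means of 5074 and 4488 and footprint base means of 30.7 and 50.8 in the control and complemented pools.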

How the data were processed

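RNA-seq and ribosome profiling libraries of 4 conditions were used as pooled values. According to the methods, the authors removed adapter sequence from footprint reads and merged duplicates by UMI. No UMI step is described there for the RNA libraries. The authors filtered out reads of structural and micro RNAs and aligned the remainder to hg38 with STAR. Its version is 2.6.0a in the submitters' notes, which list cutadapt and Bowtie2 too. They took reads above 24 nt on coding sequence with Ribo-seQC. Which annotation release they used is not given in the sources used here. Counts were normalized and averaged by the authors with DESeq2, and these deposited base means are the values used. The tables also hold the authors' own fold changes, adjusted p-values and classes, which are not used here. The tests between conditions need values per library and were not run.

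Base means got exact Poisson intervals and the ratio of footprint to RNA base mean an exact binomial interval, both on the base mean times 4 libraries (Python 3.11.15, scipy 1.17.1), after the interval code was tested on simulated data. They cover counting error only. Coding lengths and 5′ UTRs of at least 10 nt are from GENCODE v44 canonical transcripts (for 5′ UTRs, otherwise the longest), found for 97.5% of genes in the control pool and 97.7% in the complemented pool. Folding is from RNAfold 2.7.2. Genes named are the members, the 3 nearest genes of each, the lowest and highest of each list with over 20 footprints, the study's candidates and controls, and the 3 most abundant epithelial markers. The epithelial markers without a row and CDX2 were named after their values were seen. The members, lists and rules were chosen with earlier results of these data known.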

Additional observations from a re-analysis of the deposited data

How the results depend on the processing

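No paired analysis was possible because the tables hold 1 pooled value per gene and no value per replicate, and for the same reason no fit without a replicate, with another normalization or with another filter on counts was run. In the complemented pool the log2 ratio of footprints to RNA was -6.39 for DVL1, -4.69 for DVL2 and -5.51 for DVL3, against -7.25, -5.24 and -6.28 in the control pool. The members were higher by 0.856 (DVL1), 0.553 (DVL2) and 0.764 (DVL3) in the complemented pool. The median difference over the 7386 shared genes was 0.217. Of the shared genes, 94.2%, 81.4% and 91.3% had a lower difference than DVL1, DVL2 and DVL3. The tables were normalized separately, pool other libraries and hold other genes, and the cause of this shift was not tested. The share of genes with a lower ratio depended on the genes compared. With base means above 20 it was 19.5% for DVL2 in the control pool. With base means above 100 it was 0.686% for DVL1, 10.1% for DVL2 and 2.36% for DVL3 in the control pool, and 16.3% for DVL2 and 5.73% for DVL3 in the complemented pool; that limit removes genes with few footprints, the members included. Within 1 of 10 equal groups by RNA base mean, chosen after seeing the data, it was 7.62%, 42.4% and 16.3% for DVL1, DVL2 and DVL3 in the control pool and 10.6%, 44.3% and 18.0% in the complemented pool. In any set of genes common to all 3 paralogs, their order is fixed by their own ratios. It cannot change with the genes compared and is no check on the order. The shortest 5′ UTR had a GC content of 93.6% in DVL1 and 87.3% in DVL3, against canonical values of 87.5% and 82.6%. The longest coding sequence was the canonical one in all 3 genes. Footprint depth limits every ratio here, since a base mean of 29.2 over 4 libraries gave DVL1 the widest interval relative to its value.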
